A study of Mus musculus with 18 samples.

Results

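Isoproterenol (ISO) was set directly against the ABHD5 ligand SR-3420 in brown adipocytes in which ABHD5 had been restored. The comparison took 6 of the 18 libraries of the series, chosen by their titles, namely 3 of cells given ISO with doxycycline (Dox) and 3 of cells given SR-3420 with Dox. Of 17672 genes in the deposited table, 10178 had enough counts to be tested and 7494 had not. The cells were an immortalised mouse brown preadipocyte line, differentiated in culture, that carried a stable lentiviral shRNA against Abhd5 and an mCherry-tagged, shRNA-resistant Abhd5 under a Dox-inducible promoter. Both groups received 1 µg/ml Dox, so that both carried the knockdown and the rescue construct. The study's methods give 24 to 48 h of Dox, and its legend for this experiment gives 24 h. Both groups were then stimulated for 3 h with either 10 nM ISO or 20 µM SR-3420. Each agent was used at a single dose, so a difference between them is one between these 2 doses. The study's methods give replicates as independent experiments, while the labels do not tie a replicate number to an experiment. Cells of the same line given the vehicle DMSO with Dox, and cells given ISO or SR-3420 without Dox (the knockdown state), are used beside them.

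ISO binds β-adrenergic receptors, which raise cyclic AMP and activate protein kinase A. The kinase acts on CREB-family transcription factors and their coactivators and, in the same cell, on perilipin and hormone-sensitive lipase, so that the agonist also starts lipolysis. ABHD5 is the protein that activates the triglyceride lipase ATGL when it leaves perilipin, and SR-3420 frees ABHD5 without the receptor. Both agents therefore lead to lipolysis, whose fatty acids are ligands of the PPAR nuclear receptors, and only ISO also engages the receptor and cyclic AMP.

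Totals of the 6 libraries lay between 1014430 and 1491360 counts, and values below are CPM, the share of counts scaled to a fixed total, with library sizes scaled by the TMM method. SR-3420 with Dox replicate 1 stood apart: its 10 most counted genes held 35.6% of its counts, against 16.3% to 24.8% in the other libraries with Dox, and calls that change without it, and counts or medians of gene groups that shift clearly, are also given without it. Abhd5, the gene that is knocked down and rescued, was at 813, 859 and 808 CPM with ISO and 575, 849 and 660.1 CPM with SR-3420 (edgeR adjusted p = 0.216, 0.0416 without SR-3420 replicate 2). All 6 values exceeded the 6 of the same agents without Dox, which were 173, 145 and 129.9 CPM and 77.8, 70.9 and 78.5 CPM. Markers of the labelled cell type were present. Of 20 brown adipocyte genes 15 were tested, and these summed to 7265 to 7909 CPM with ISO and 6139 to 7260 CPM with SR-3420. Of 11 macrophage and 13 muscle genes only 1 each had enough counts to be tested, Cd68 and Des. Cd68 reached at most 15.9 CPM and Des at most 29.9 CPM in any of the 6 libraries. Of the full lists 1 and 5 genes were at 0 in every library, and untested genes were not summed. Of 9 endothelial genes, 3 were tested and 1 was at 0 throughout. The sum of the 3 tested was 36.6 to 50.4 CPM with ISO against 24.97 to 30.8 CPM with SR-3420. Tek was the endothelial gene called, 2.33-fold higher with ISO (edgeR adjusted p = 0.0246, 0.0841 without ISO replicate 2, 0.0563 without SR-3420 replicate 1, 0.0676 without SR-3420 replicate 2 and 0.0593 without SR-3420 replicate 3), and the part of such cells in other results was not tested. For 60.8% of 9580 tested genes the length over which reads were counted lay within 10% of the annotated intron length, for 2.18% within 10% of the exon length and for 18.1% within 10% of the gene's whole span, which it equalled for none. It was nearer to the intron length than to the whole span for 91.9% of these genes. For Ucp1 it was 6465 bases, equal to the annotated intron length. The study's methods name the gene setting of the counting tool iRNA-seq, and the length column does not match a count over whole genes. Which reads of a gene entered its count is therefore not settled by the sources used here, and levels below may include or rest on intron reads.

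ISO and SR-3420 differed in a large part of the transcriptome. A gene is called where its edgeR adjusted p is at most 0.05 and its level differs at least 2-fold, and by this rule 355 genes (3.49% of those tested) were higher with ISO, 342 (3.36%) were lower with ISO and 697 (6.85%) differed either way. At the adjusted p alone, which is what "passed" means below, 1056 genes (10.4%) were higher and 960 (9.43%) lower, or 2016 (19.8%) in all. Counts in the gene groups below are to be read against these shares. The 3 values of one group lay wholly above or below the 3 of the other for 3518 genes (34.6%) and for 667 of the 697 genes called. The median log2 difference over all genes tested, ISO minus SR-3420, was -0.03. The 95% interval of the difference lay within 2-fold in both directions for 6497 genes (63.8%).

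Levels with the vehicle DMSO are given for position, with no test. Among the 355 genes called higher with ISO, the mean DMSO level was nearer to SR-3420 than to ISO, on a log2(CPM + 1) scale, for 319 (89.9%). It was nearer to SR-3420 for 276 (80.7%) of the 342 genes called lower with ISO. In the group called higher, the vehicle mean lay below both agents for 188 genes and between them for 163. In the group called lower, it lay between the agents for 193 and above both for 129.

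**Figure D1:**
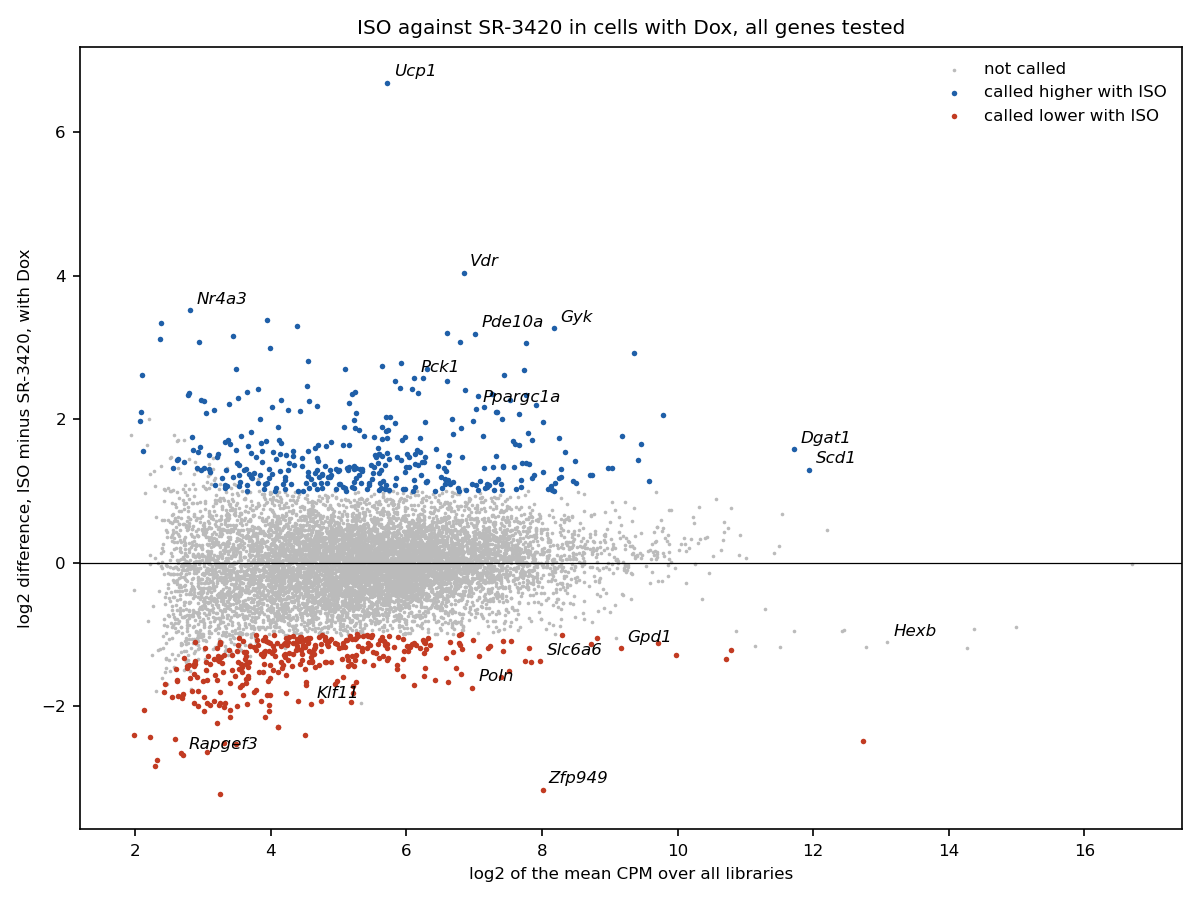
Log2 difference between ISO and SR-3420 with Dox (vertical axis) against log2 of the mean CPM over all libraries (horizontal axis) for the 10178 genes tested, with the 355 genes called higher with ISO in blue and the 342 called lower in red. Ucp1 lies highest at 6.69, followed by Vdr at 4.04.

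Transcription factors that answer to cyclic AMP separated the agents in both directions. Of 15 tested factors of this kind, 6 were called higher with ISO and 2 lower, and the median log2 difference was 0.07 (5 and 2, with a median of 0.29, without SR-3420 replicate 1). The orphan nuclear receptors of the NR4A group, immediate early genes of cyclic AMP, were higher with ISO in all 3 cases. Nr4a3 was at 20.01, 18.9 and 19.3 CPM with ISO and at 0.879, 0.994 and 2.996 CPM with SR-3420, which gave a log2 difference of 3.52 ± 0.54 (SE, n = 3 and 3, edgeR adjusted p = 1.8e-05). The ISO values were all near 20 CPM and the SR-3420 values all at 3 CPM or below, next to a vehicle mean of 0.375 CPM. Nr4a1 was at 114, 96.9 and 87.6 CPM with ISO and 53.6, 53.7 and 38.9 CPM with SR-3420, a 2.04-fold difference (edgeR adjusted p = 0.00148), with a vehicle mean of 31.04 CPM. Nr4a2, at 8.34, 12.6 and 9.63 CPM against 4.39, 0.994 and 5.99 CPM, passed over all libraries (edgeR adjusted p = 0.04), but its adjusted p was 0.129 without ISO replicate 2, 0.0654 without ISO replicate 3, 0.0728 without SR-3420 replicate 1 and 0.182 without SR-3420 replicate 2.

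Crem, whose short product ICER closes the CREB response, was at 133, 117 and 115 CPM with ISO and 43.1, 43.7 and 37.9 CPM with SR-3420, 2.92-fold higher with ISO (edgeR adjusted p = 3.31e-07). The SR-3420 values lay near the vehicle mean of 38.5 CPM and no ISO value came near them. Fosl1 and Fosl2, members of the AP-1 family, were 6.69-fold and 3.004-fold higher with ISO (edgeR adjusted p = 1.72e-08 and 6.06e-07). The other direction was taken by Egr1 and Atf3. Atf3, a factor induced by stress and by growth signals, was at 10.8, 14.97 and 7.70 CPM with ISO and 35.2, 43.7 and 18.97 CPM with SR-3420, above a vehicle mean of 3.07 CPM, a log2 difference of -1.52 ± 0.35 (edgeR adjusted p = 0.00221). Egr1, an immediate early gene of growth factor and MAP kinase signalling named here after its values were seen, was at 5.002, 1.58 and 0 CPM with ISO against 17.6, 11.9 and 10.99 CPM with SR-3420. Its vehicle mean was 15.96 CPM, above all ISO values, and the log2 difference was -2.53 ± 0.58 (edgeR adjusted p = 0.00209), or -3.82 without ISO replicate 1. Of the CREB-family genes themselves, Atf1 was at 107, 85.1 and 85.7 CPM and 82.6, 94.4 and 86.9 CPM, with a 95% interval of the log2 difference of -0.23 to 0.38.

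CREB binds the palindrome TGACGTCA and, more weakly, its shorter form TGACG. RefSeq promoter windows on GRCm38.p6, from 250 bases before to 50 after a start site, were searched for both on either strand, a search in which every full palindrome also holds the short form. Windows were found by symbol for 260 of the 355 genes called higher with ISO and for 245 of the 342 called lower. The palindrome stood in 2.45% of the 326 windows of the first group, in 1.86% of the 322 of the second and in 3.05% of the 10122 windows of all genes tested. The short form stood in 28.8%, 23.9% and 31.3% of them. A direct repeat of AGGTCA with 1 base between, the element of PPAR and RXR pairs, was in none of the windows of either called group and in 0.0296% of those of all genes tested. Such windows cover only the first bases before a start, and a match describes letters and no binding.

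The 250 bases before the start of 5 genes are shown because they hold these letters in genes from both directions of the comparison, with matches to TGACG or TGACGTCA on either strand in capitals. Nr4a1 (chr15:101266596-101266845, plus strand) and Nr4a3 (chr4:48045055-48045304, plus strand) hold the short form 4 times each and were higher with ISO. Prkar1a (chr11:109650699-109650948, plus strand), the regulatory subunit of protein kinase A described below, holds the palindrome from base 49 before the start and was higher with ISO. Errfi1 (chr4:150854820-150855069, plus strand) and Dusp1 (chr17:26508473-26508722, minus strand) hold it from bases 51 and 143 before the start and were lower with ISO.
Nr4a1: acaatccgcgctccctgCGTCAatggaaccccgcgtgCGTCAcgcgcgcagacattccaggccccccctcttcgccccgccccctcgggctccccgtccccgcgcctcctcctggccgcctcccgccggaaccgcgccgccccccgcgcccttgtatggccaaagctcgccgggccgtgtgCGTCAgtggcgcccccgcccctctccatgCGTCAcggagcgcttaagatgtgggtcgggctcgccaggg
Nr4a3: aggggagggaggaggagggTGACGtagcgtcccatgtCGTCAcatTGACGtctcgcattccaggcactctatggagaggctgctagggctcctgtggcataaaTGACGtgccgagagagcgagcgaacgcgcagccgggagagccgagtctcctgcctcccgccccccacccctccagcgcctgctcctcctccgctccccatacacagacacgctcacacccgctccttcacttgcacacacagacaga
Prkar1a: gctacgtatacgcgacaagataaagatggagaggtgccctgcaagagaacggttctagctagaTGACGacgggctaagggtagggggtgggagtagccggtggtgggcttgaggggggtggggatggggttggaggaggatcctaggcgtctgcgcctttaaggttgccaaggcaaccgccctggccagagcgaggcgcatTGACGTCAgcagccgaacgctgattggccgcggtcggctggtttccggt
Errfi1: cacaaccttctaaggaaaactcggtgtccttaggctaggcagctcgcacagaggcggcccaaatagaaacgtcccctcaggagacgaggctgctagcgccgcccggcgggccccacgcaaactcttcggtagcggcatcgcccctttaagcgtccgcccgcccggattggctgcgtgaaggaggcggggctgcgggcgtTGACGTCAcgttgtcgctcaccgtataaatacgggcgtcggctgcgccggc
Dusp1: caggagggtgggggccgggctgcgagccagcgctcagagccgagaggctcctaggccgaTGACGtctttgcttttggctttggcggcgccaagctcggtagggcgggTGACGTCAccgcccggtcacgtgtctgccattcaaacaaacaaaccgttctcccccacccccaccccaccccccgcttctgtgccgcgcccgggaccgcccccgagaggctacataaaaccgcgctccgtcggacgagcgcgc

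Of 30 tested genes for receptors, cyclases and protein kinase A, 6 passed higher and 4 passed lower with ISO, of which 3 and 1 were called (2 and 2 without SR-3420 replicate 1), with a median log2 difference of 0.05 (0.08 without that library). Adcy3, an adenylyl cyclase that makes cyclic AMP, was at 652, 443 and 688 CPM with ISO and 121, 126 and 104 CPM with SR-3420, with no overlap and a 5.06-fold difference (edgeR adjusted p = 1.01e-11). Its span overlaps Cenpo, and as counting was not stated to use strand, reads of the pair cannot be told apart. Prkar1a, which holds the catalytic subunit inactive until cyclic AMP binds, was at 404, 395 and 423 CPM and 256, 269 and 259 CPM, 1.56-fold higher with ISO (edgeR adjusted p = 0.000185) with tight values in both groups. Akap11, an anchoring protein of the kinase, was 2.03-fold higher (edgeR adjusted p = 0.000259). Grk5, a kinase that desensitises receptors, was 1.85-fold lower with ISO (edgeR adjusted p = 0.000633). Rapgef3, which encodes the cyclic AMP sensor EPAC1 and was named after its values were seen, was at 1.67, 2.36 and 1.93 CPM with ISO against 11.4, 11.9 and 16.98 CPM with SR-3420, a log2 difference of -2.68 ± 0.57 (edgeR adjusted p = 0.00114). Adrb3, the fat cell β-receptor, spread widely within groups, at 97.5, 22.8 and 111 CPM with ISO and 60.6, 13.9 and 39.9 CPM with SR-3420. Its adjusted p was 0.189 by edgeR over all libraries and 0.0298 without ISO replicate 2. With replicate number added to the edgeR fit it was 0.000782.

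Phosphodiesterases, which break cyclic nucleotides down, passed higher with ISO in 5 of 17 tested cases and lower in 1, and 3 and 0 without SR-3420 replicate 1. Their median log2 difference was 0.09, and -0.03 without that library. Pde10a stood out, at 301, 242 and 299 CPM with ISO and 26.4, 29.8 and 35.95 CPM with SR-3420, a log2 difference of 3.19 ± 0.16 (edgeR adjusted p = 3.23e-14). The SR-3420 values lay near the vehicle mean of 28.2 CPM. Pde3b, the insulin-stimulated enzyme of fat cells, was at 712, 608 and 569.8 CPM with ISO and 319, 391 and 306 CPM with SR-3420 (1.86-fold higher with ISO, edgeR adjusted p = 0.00028), and both groups exceeded the vehicle values of 167, 265 and 159.5 CPM. Pde4d was 1.55-fold higher with ISO (edgeR adjusted p = 0.00395). Pde4b was 2.23-fold higher (edgeR adjusted p = 0.0122, and 0.0518 without SR-3420 replicate 1 and 0.0728 without SR-3420 replicate 3). Pde7a did not pass, with a 95% interval of the log2 difference of -0.21 to 0.38, and Pde8a had an interval of 0.07 to 0.58 (edgeR adjusted p = 0.0634, 0.0323 without ISO replicate 1).

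Salt-inducible kinases, CREB coactivators and the deacetylases they govern passed higher with ISO in 5 of 13 cases and lower in 2, with a median log2 difference of 0.22 that was -0.04 without ISO replicate 2 and 0.41 without SR-3420 replicate 1. Sik1, itself a CREB target that restrains the response, was at 30.01, 44.9 and 28.9 CPM with ISO and 14.9, 20.9 and 12.98 CPM with SR-3420, both above the vehicle mean of 6.90 CPM. The difference was 2.14-fold (edgeR adjusted p = 0.00749, and 0.0576 without ISO replicate 2). The class IIa deacetylases went opposite ways: Hdac4 was 2.86-fold higher with ISO, at 97.5, 107 and 88.6 CPM against 42.2, 36.8 and 22.97 CPM, and Hdac5 was 2.28-fold lower, at 94.2, 85.1 and 95.3 CPM against 223, 199 and 204 CPM (edgeR adjusted p = 1.06e-06 and 8.53e-06). Neither pair of groups overlapped. For the coactivators Crtc2 and Crebbp the 95% intervals of the log2 difference were 0.08 to 0.68 and -0.61 to -0.03.

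Among 12 tested feedback genes of MAP kinase signalling, 1 passed higher and 3 passed lower with ISO, and the median was -0.12 (1 and 2, with a median of 0.01, without SR-3420 replicate 1). Dusp5, a nuclear phosphatase of ERK, was 3.12-fold higher with ISO, at 120.1, 74.8 and 95.3 CPM against 29.9, 39.8 and 22.97 CPM (edgeR adjusted p = 2.01e-05). Errfi1, an inhibitor of the EGF receptor, was 1.92-fold lower with ISO, at 23.3, 20.5 and 25.03 CPM against 42.2, 42.7 and 46.9 CPM (edgeR adjusted p = 0.0015), and the SR-3420 values were near the vehicle values of 38.5, 37.5 and 42.7 CPM. Dusp1, at 5.84, 3.94 and 3.85 CPM with ISO and 16.7, 13.9 and 10.99 CPM with SR-3420, had an edgeR adjusted p of 0.0106, and of 0.0574 without SR-3420 replicate 1.

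The leading genes of the thermogenic program were far higher with the agonist than with the ligand. Of 13 tested members, 6 passed higher with ISO and 1 passed lower, 5 of the 6 were called, and the median log2 difference was 0.50 (0.75 without SR-3420 replicate 1). Ucp1 (chr8:85814247-85822355, plus strand, mm9), the uncoupling protein of brown fat, had 347, 171 and 311 counts with ISO and 5, 0 and 2 with SR-3420. On the CPM scale it was at 289, 135 and 299 with ISO, at 4.39, 0 and 1.997 with SR-3420 and at 0.481, 1.04 and 1.12 with vehicle. The fitted log2 difference was 6.69 ± 0.51 (edgeR adjusted p = 7.66e-11), and its size rests on the 7 counts of the SR-3420 group. Ppargc1a, the coactivator of mitochondrial biogenesis, was at 597, 261 and 410.04 CPM with ISO and 146, 61.6 and 75.9 CPM with SR-3420, a 4.42-fold difference (edgeR adjusted p = 6.09e-07). Its SR-3420 values all exceeded the vehicle values of 41.9, 38.5 and 50.6 CPM, so the agents differed in degree. Irf4 and Zfp516, transcriptional partners in thermogenic gene control, were 3.87-fold and 3.90-fold higher with ISO (edgeR adjusted p = 3.44e-08 and 9.72e-10). Zfp516 was at 187, 172 and 172 CPM with ISO and 54.5, 40.8 and 39.9 CPM with SR-3420, against a vehicle mean of 27.3 CPM. Prdm16, a determinant of brown fat identity, was 2.51-fold higher (edgeR adjusted p = 0.000104). Atp2a2 and Ryr2, genes of calcium cycling, had 95% intervals of the log2 difference of -0.16 to 0.37 and -0.64 to 0.44.

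**Figure D2:**
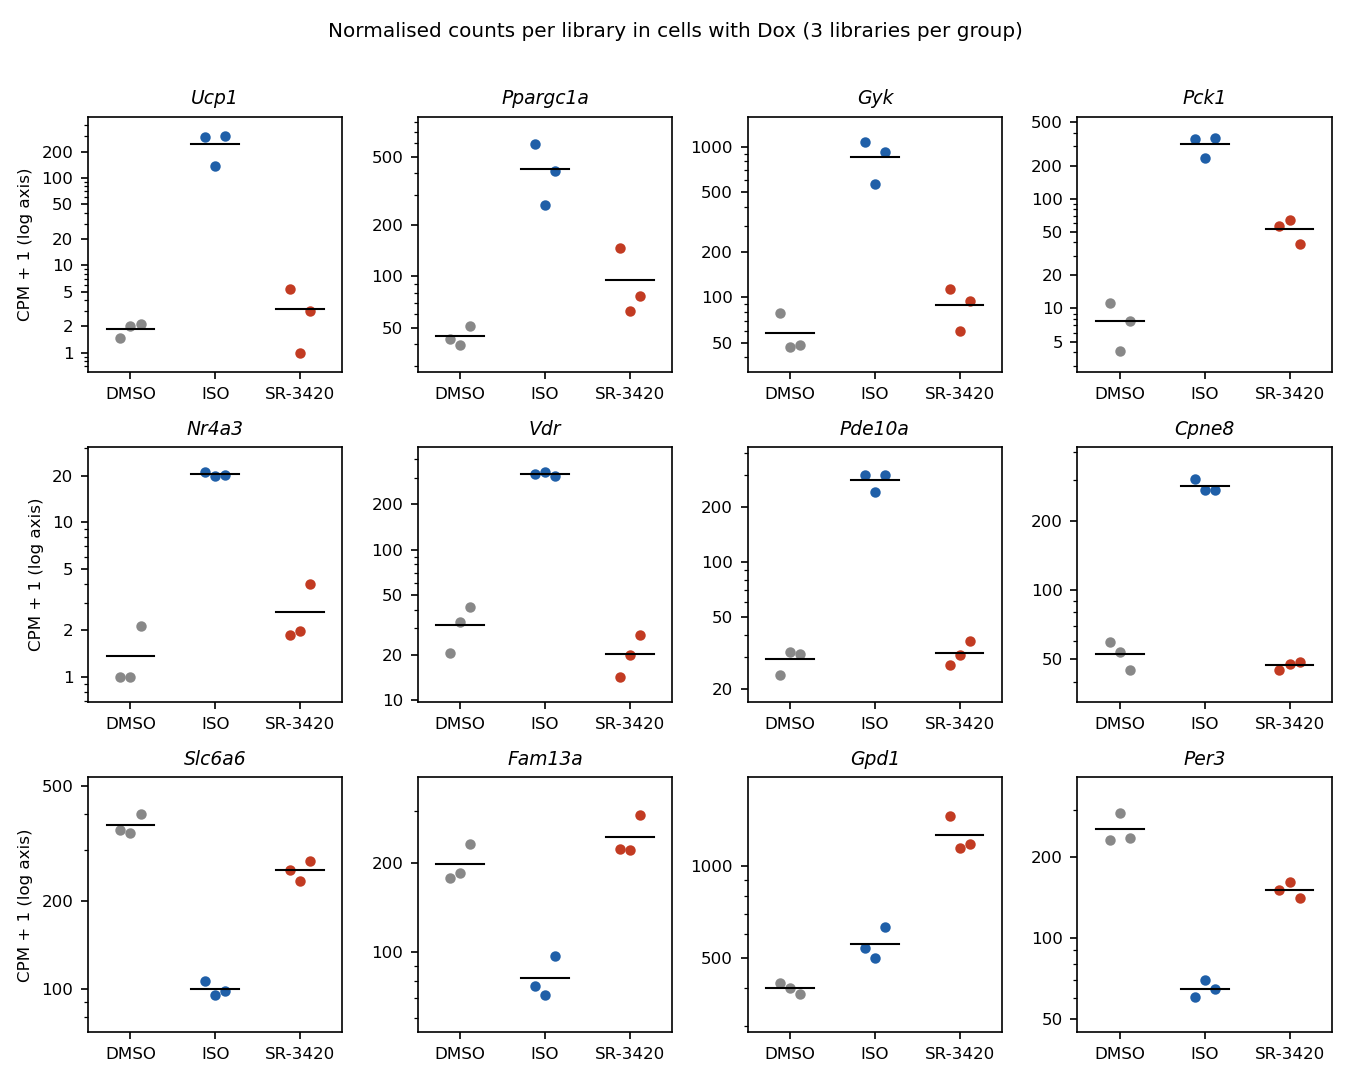
Normalised counts (CPM with 1 added, log axis) of 12 genes in each library with Dox, by treatment (3 libraries each for DMSO, ISO and SR-3420), with a bar at the group mean. For Vdr, Pde10a and Cpne8 SR-3420 lies near DMSO and ISO far above, for Pck1 and Ppargc1a SR-3420 lies between, and for Gpd1 it lies above ISO.

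Among 20 tested PPARs and coregulators, 7 passed higher and 4 lower with ISO, and 5 and 2 were called, with a median log2 difference of 0.17 (8 and 5 passed, with a median of 0.32, without SR-3420 replicate 1). Pparg, the adipocyte master regulator, was at 620.3, 406 and 624 CPM with ISO and 265, 222 and 276 CPM with SR-3420, the latter overlapping the vehicle values of 278, 254 and 265 CPM, a 2.16-fold difference (edgeR adjusted p = 7.34e-06). Ppara, the fatty acid sensor of oxidative tissue, was at 97.5, 18.9 and 75.1 CPM and 134, 38.8 and 118 CPM, all 6 above the vehicle values of 18.3, 6.25 and 16.9 CPM. Its edgeR adjusted p was 0.29, and 0.011 with replicate number added to the fit. Ppargc1b, at 550.2, 231 and 416 CPM and 382, 164 and 282 CPM, had an edgeR adjusted p of 0.116, and of 0.00629 without ISO replicate 2 and 0.0176 without SR-3420 replicate 1. With replicate number added to the edgeR fit it was 0.000545.

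Of 40 tested PPAR targets, 8 passed higher with ISO, 4 passed lower and 28 did not pass, and 1 was called in each direction (2 higher and 1 lower without SR-3420 replicate 1). Their median log2 difference was 0.14, with the interval of the difference within 2-fold for 28 of them. Pdk4, the kinase that shuts pyruvate dehydrogenase when fat is burnt, was at 803, 532 and 726 CPM with ISO and 1139, 909.7 and 804 CPM with SR-3420. The interval of the log2 difference was -0.92 to -0.02 (edgeR adjusted p = 0.136, and 0.00256 with replicate number added to the fit). All 6 values lay above the vehicle values of 196, 93.7 and 144 CPM. Plin2, a lipid droplet coat protein, was at 566, 561 and 405 CPM and 589, 731 and 395 CPM against vehicle values of 152, 158 and 99.99 CPM, and the interval was -0.61 to 0.28. Hilpda, an inhibitor of ATGL, was at 40.02, 29.1 and 20.2 CPM and 21.97, 27.8 and 16.98 CPM with an interval of -0.30 to 1.16. The ISO and SR-3420 values of Plin2 and of Hilpda overlapped, and those of Pdk4 just failed to. Cd36, the fatty acid transporter, had an interval of -0.54 to 0.03.

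Among the PPAR targets that passed, Angptl4, a secreted inhibitor of lipoprotein lipase, was lower with ISO at 466, 389 and 449 CPM against 879.8, 699.9 and 729 CPM (edgeR adjusted p = 0.0217, and 0.0761 without ISO replicate 2, 0.0574 without ISO replicate 3 and 0.0873 without SR-3420 replicate 1). Ehhadh, a peroxisomal oxidation enzyme, was 2.78-fold lower with ISO, at 8.34, 12.6 and 14.4 CPM against 32.5, 27.8 and 37.9 CPM (edgeR adjusted p = 0.000301). Acsl1, which activates long-chain fatty acids, was 1.80-fold higher with ISO, at 1562, 1388 and 1530.4 CPM against 798, 979 and 718 CPM, and Lpl, lipoprotein lipase, was 1.71-fold higher (edgeR adjusted p = 0.000301 and 0.000912). Cpt1a, the gate of mitochondrial fatty acid entry, had an edgeR adjusted p of 0.11, and of 0.0446 without ISO replicate 2 and 0.0189 without SR-3420 replicate 3.

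Of 20 tested lipase and droplet genes, 3 passed higher and 1 passed lower with ISO, none was called, and the median log2 difference was 0.08 (2 and 1, with a median of 0.01, without SR-3420 replicate 1). Pnpla2, which encodes ATGL, was at 753, 815 and 823 CPM with ISO and 755, 719.8 and 627 CPM with SR-3420, with an interval of -0.09 to 0.46. Plin1, the perilipin that holds ABHD5, had an interval of -0.51 to 0.13. Aqp7, the glycerol channel, was 1.61-fold lower with ISO, at 223, 157 and 242 CPM against 331, 278 and 386 CPM (edgeR adjusted p = 0.00321). Lipe, which encodes hormone-sensitive lipase, was not analysed here.

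Of 21 tested genes of glyceroneogenesis and triglyceride synthesis, 5 passed higher and 3 lower with ISO, and 3 were called each way, with a median log2 difference of 0.07 (3 and 2 called, with a median of 0.01, without SR-3420 replicate 1). Gyk, glycerol kinase, was at 1079, 562 and 927 CPM with ISO and 113, 58.7 and 93.9 CPM with SR-3420, a 9.59-fold difference (edgeR adjusted p = 2.17e-11). Pck1, which makes glycerol 3-phosphate from pyruvate in fat, was at 345, 232 and 354 CPM, 55.4, 62.6 and 37.9 CPM and, with vehicle, 10.1, 3.12 and 6.74 CPM, so that all 3 groups were apart. The difference between the agents was 5.94-fold (edgeR adjusted p = 6.71e-09). Dgat1, which adds the last acyl chain to triglyceride, was at 8980.5, 10952 and 8734 CPM with ISO and 3261, 3544 and 2781 CPM with SR-3420, 2.99-fold higher with ISO (edgeR adjusted p = 4.72e-07). Gpd1, which makes glycerol 3-phosphate from glycolysis, went the other way: it was at 539, 499 and 630.5 CPM with ISO and 1464, 1151 and 1184 CPM with SR-3420, 2.28-fold lower with ISO (edgeR adjusted p = 7.98e-07), with vehicle values of 413, 399.7 and 381 CPM below both. Pcx and Agpat3 of the same list had intervals of -0.28 to 0.30 and -0.48 to 0.09.

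Among acyl-CoA synthetases and fatty acid carriers both directions occurred. Acsl4, an arachidonate-preferring synthetase, was 5.09-fold higher with ISO, at 332, 324 and 259 CPM against 67.7, 61.6 and 49.9 CPM (edgeR adjusted p = 3.92e-10). Fabp5, a fatty acid carrier, was 2.38-fold higher (edgeR adjusted p = 9.57e-05). Slc27a1, a fatty acid transport protein, was 2.58-fold lower with ISO, at 87.5, 117 and 145 CPM against 281, 252 and 369.5 CPM, where the SR-3420 values overlapped the vehicle values of 243, 207 and 312 CPM (edgeR adjusted p = 1.04e-05). Among 16 tested genes of this list 4 passed higher and 2 lower, with a median of 0.06 (4 and 1, with a median of 0.02, without SR-3420 replicate 1).

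Of 37 tested genes of glucose use, 14 passed higher and 2 passed lower (12 and 1 without SR-3420 replicate 1), 4 were called and all of these were higher, and the median log2 difference was 0.44. Gfpt2, the entry enzyme of hexosamine synthesis, was at 76.7, 79.6 and 80.9 CPM with ISO and 16.7, 14.9 and 8.99 CPM with SR-3420, 5.75-fold higher with ISO (edgeR adjusted p = 9.23e-10). Pgam1 and Tpi1 of glycolysis were 2.18-fold and 1.62-fold higher, and Pygl, glycogen phosphorylase, 2.74-fold (edgeR adjusted p = 1.65e-06, 0.000402 and 0.000153). Aldoa and Gpi1 had intervals of -0.02 to 0.67 and -0.06 to 0.56. In lipid synthesis 3 of 32 genes passed higher and 4 lower, with a median of 0.13 (2 and 4, with a median of 0.01, without SR-3420 replicate 1). Scd1, the stearoyl-CoA desaturase, was 2.46-fold higher with ISO, at 5367, 7066 and 5722 CPM against 2158, 3445 and 1789.6 CPM, and Acaca, acetyl-CoA carboxylase, 1.61-fold higher. Thrsp and Mlxipl, a lipogenic cofactor and the carbohydrate response factor ChREBP, were 3.59-fold and 1.87-fold lower (edgeR adjusted p of the 4 genes = 0.000117, 0.00133, 0.000259 and 0.00019).

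Ranked by p, the first 10 genes higher with ISO were Vdr, Pde10a, Cpne8, St3gal1, Chst8, Uap1, Nnmt, Csrp2, Adcy3 and Tpcn2, all with non-overlapping groups, as the choice required. Vdr, the vitamin D receptor, was at 318, 327 and 305 CPM with ISO and 13.2, 18.9 and 25.97 CPM with SR-3420, a log2 difference of 4.04 ± 0.21 (edgeR adjusted p = 3.23e-14), where the vehicle values were 19.7, 32.3 and 40.4 CPM. Cpne8, a calcium-dependent membrane-binding protein, was at 303, 273 and 272 CPM and 43.9, 46.7 and 47.9 CPM (6.12-fold, edgeR adjusted p = 8.62e-14). For both, the mean with SR-3420 lay below that with vehicle, which was 30.8 CPM for Vdr and 51.7 CPM for Cpne8. St3gal1, a sialyltransferase, Chst8, a sulfotransferase, and Uap1, which makes UDP-N-acetylglucosamine, were 8.31-fold, 8.43-fold and 7.56-fold higher (edgeR adjusted p = 3.95e-12, 3.95e-12 and 5.58e-12). Nnmt, nicotinamide N-methyltransferase, was at 244, 186 and 219 CPM against 32.5, 13.9 and 22.97 CPM, 9.20-fold higher with ISO. Tpcn2, a lysosomal cation channel, and Csrp2, a LIM domain protein, were 5.005-fold and 4.80-fold higher (edgeR adjusted p of the last 3 genes = 1.01e-11, 1.09e-11 and 1.01e-11).

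The first 10 lower with ISO were Poln, Dock9, Lasp1, Fam13a, Arhgef10, Lzts2, Slc6a6, Phldb1, Iqgap3 and Pitpnm2. Their differences were smaller, between -1.74 and -1.11 on the log2 scale, with edgeR adjusted p from 2.81e-09 to 3.7e-07. Slc6a6, the taurine transporter, was at 105, 93.7 and 97.2 CPM with ISO, 256, 235 and 276 CPM with SR-3420 and 353, 344 and 399 CPM with vehicle, so that ISO was low, SR-3420 between and vehicle highest without overlap. Fam13a, which carries a GTPase-activating domain, was at 75.9, 70.9 and 96.3 CPM with ISO and 222, 219.7 and 289.6 CPM with SR-3420, the latter near the vehicle values of 178, 184 and 231 CPM. Dock9 was at 60.9, 57.5 and 47.2 CPM and 197, 137 and 184 CPM with vehicle values of 93.4, 79.1 and 97.7 CPM between them. Dock9 and Arhgef10 encode exchange factors of small GTPases, Iqgap3 a scaffold of such GTPases and Lasp1 an actin-binding protein. Poln overlaps Haus3, so its value is uncertain.

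Antioxidant genes gave 3 passes of 28, all higher with ISO and all called, and a median log2 difference of 0.24 (0.15 without SR-3420 replicate 1). Sod2, the mitochondrial superoxide dismutase, was at 368, 281 and 326 CPM with ISO and 84.4, 57.7 and 102 CPM with SR-3420, 3.99-fold higher with ISO (edgeR adjusted p = 9.25e-10). Srxn1, sulfiredoxin, and Gclc, the rate-limiting enzyme of glutathione synthesis, were 4.68-fold and 2.09-fold higher (edgeR adjusted p = 2.87e-06 and 3.68e-05). Catalase (Cat) and Mgst1 had intervals of -0.03 to 0.50 and -0.23 to 0.28.

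In insulin signalling 6 of 27 genes passed higher and 3 lower, with a median of -0.20. Irs1, the insulin receptor substrate, was 5.30-fold higher with ISO, at 329, 354 and 402 CPM against 48.3, 90.5 and 66.9 CPM and vehicle values of 28.4, 51.01 and 29.2 CPM (edgeR adjusted p = 5.06e-10). Akt2 and Tbc1d4, which carry the signal to glucose transporters, were 1.73-fold and 2.21-fold lower with ISO (edgeR adjusted p = 9.27e-05 and 0.00013). Among 25 tested secreted factors 5 passed higher and 2 lower, with a median of 0.14 (4 and 1 passed without SR-3420 replicate 1). Rbp4, the retinol carrier, was 3.40-fold higher and Metrnl, meteorin-like, 5.48-fold higher with ISO (edgeR adjusted p = 1.93e-09 and 7.98e-07). Adipoq and Vegfa had intervals of -0.33 to 0.32 and -0.17 to 0.46.

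Stress genes that differed were mostly lower with ISO. Of 32 tested amino acid stress genes 8 passed lower and 1 higher, and 6 and 2 without SR-3420 replicate 1. Their median log2 difference was -0.23, and 0.09 without that library. Gdf15, a stress-induced secreted factor, was at 7.50, 4.73 and 3.85 CPM with ISO, 25.5, 15.9 and 17.98 CPM with SR-3420 and 2.89, 1.04 and 4.49 CPM with vehicle, a log2 difference of -1.86 ± 0.38 (edgeR adjusted p = 0.000673). The SR-3420 values were all highest. Phgdh, the first enzyme of serine synthesis, was 2.99-fold lower with ISO, at 38.3, 22.1 and 40.4 CPM against 127, 56.7 and 114 CPM, and Trib3, a pseudokinase induced by stress, 2.25-fold lower, at 63.4, 28.4 and 27.9 CPM against 119.5, 71.6 and 78.9 CPM (edgeR adjusted p = 3.35e-05 and 0.000677). Nupr1, a small chromatin protein of the same response, was lower with a log2 difference of -0.97 ± 0.16 (edgeR adjusted p = 6.83e-05). The tRNA synthetase gene Gars had an interval of -0.23 to 0.34. For the unfolded protein response, 1 of 18 tested markers passed higher and 3 lower, with a median of -0.04 (1 and 2, with a median of 0.08, without SR-3420 replicate 1), and 12 of the 18 had intervals within 2-fold. Dnaja4, a heat shock co-chaperone, was 6.98-fold higher with ISO, and Thbs1, thrombospondin, 2.80-fold lower, at 55.02, 58.3 and 44.3 CPM against 184, 188 and 70.9 CPM (edgeR adjusted p = 1.76e-08 and 3.65e-05). Ero1l, an oxidase of disulfide formation in the endoplasmic reticulum, had an interval of -0.61 to 0.57.

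Arntl, which encodes BMAL1, was at 85.9, 102 and 86.6 CPM with ISO, 85.3, 90.5 and 80.9 CPM with SR-3420 and 40.9, 48.9 and 47.2 CPM with vehicle, and the interval of the log2 difference was -0.22 to 0.41. All 6 values with an agent lay above the vehicle values. Cry1 and Per1, repressors of the clock, had intervals of -0.34 to 0.71 and -0.54 to 0.67. Of 20 tested clock genes 3 passed higher and 3 lower with ISO, and the median was -0.14, or 0.03 without ISO replicate 2. Per3 was at 59.2, 68.5 and 63.5 CPM with ISO, 150.3, 160.1 and 139.8 CPM with SR-3420 and 230.1, 291 and 235 CPM with vehicle, 2.35-fold lower with ISO (edgeR adjusted p = 1.56e-06), and all 3 groups were apart. Nfil3, a repressor of the D-box, was 3.45-fold higher with ISO, at 171, 128 and 151 CPM against 50.97, 43.7 and 34.95 CPM, and Tef, an activator at the same element, 1.62-fold lower, at 257, 254 and 248 CPM against 360.3, 450.4 and 421 CPM (edgeR adjusted p = 4.85e-09 and 0.000615).

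Of 29 tested nuclear receptors, 7 were called higher and 2 lower with ISO, and the median was 0.07. The higher ones included Vdr, the NR4A genes and Pparg, given above. Krüppel-like factors, zinc finger regulators of fat cell genes, passed only downward, with 4 of 10 passing lower, 2 of them called, none passing higher and a median of -0.56 (2 passing lower without SR-3420 replicate 1). Klf11 was at 26.7, 15.8 and 3.85 CPM with ISO and 78.2, 52.7 and 55.9 CPM with SR-3420, a log2 difference of -1.98 ± 0.30, and Klf3 at 8.34, 11.03 and 8.66 CPM and 21.97, 22.9 and 17.98 CPM (edgeR adjusted p = 1.5e-05 and 0.006). Klf9 and Klf15 had intervals of -0.89 to 0.28 and -0.38 to 0.45.

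Matrix genes split almost evenly, with 8 of 39 passing higher, 7 passing lower and a median of -0.10 (7 and 5 without SR-3420 replicate 1). Lamb1, a laminin chain, and Adamts9, a matrix protease, were 2.67-fold and 4.25-fold higher with ISO, while Adamts12, another such protease, and Lama4, another laminin chain, were 2.50-fold and 2.002-fold lower (edgeR adjusted p = 2.02e-08, 6.64e-08, 1.41e-06 and 1.09e-05). In autophagy and lysosome genes 4 of 30 passed each way, with a median of -0.04 (3 each way, with a median of 0.04, without SR-3420 replicate 1). Sqstm1, the autophagy adaptor p62, was 1.92-fold lower with ISO, at 134, 193 and 157 CPM against 278, 378 and 275 CPM, and Wipi2, a phagophore protein, 1.91-fold higher (edgeR adjusted p = 0.000418 and 3.33e-06). Of 28 interferon-stimulated genes 2 passed higher, 1 passed lower and none was called, with a median of -0.10 (0 higher and 2 lower passed, with a median of -0.30, without SR-3420 replicate 1). Of 28 cell cycle genes 6 passed lower, none passed higher and none was called, with a median of -0.13 (2 lower, with a median of -0.06, without that library). Ccnb2, cyclin B2, was 1.90-fold lower with ISO, at 44.2, 51.2 and 51.98 CPM against 92.3, 88.5 and 98.9 CPM (edgeR adjusted p = 3.72e-05). Among other cell types, Cd68 of macrophages and Des of muscle were the 2 members of their lists with enough counts to be tested, at 12.5, 10.2 and 9.63 CPM and 10.5, 15.9 and 8.99 CPM for Cd68 and 17.5, 29.9 and 22.1 CPM and 20.2, 28.8 and 22.97 CPM for Des.

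**Figure D3:**
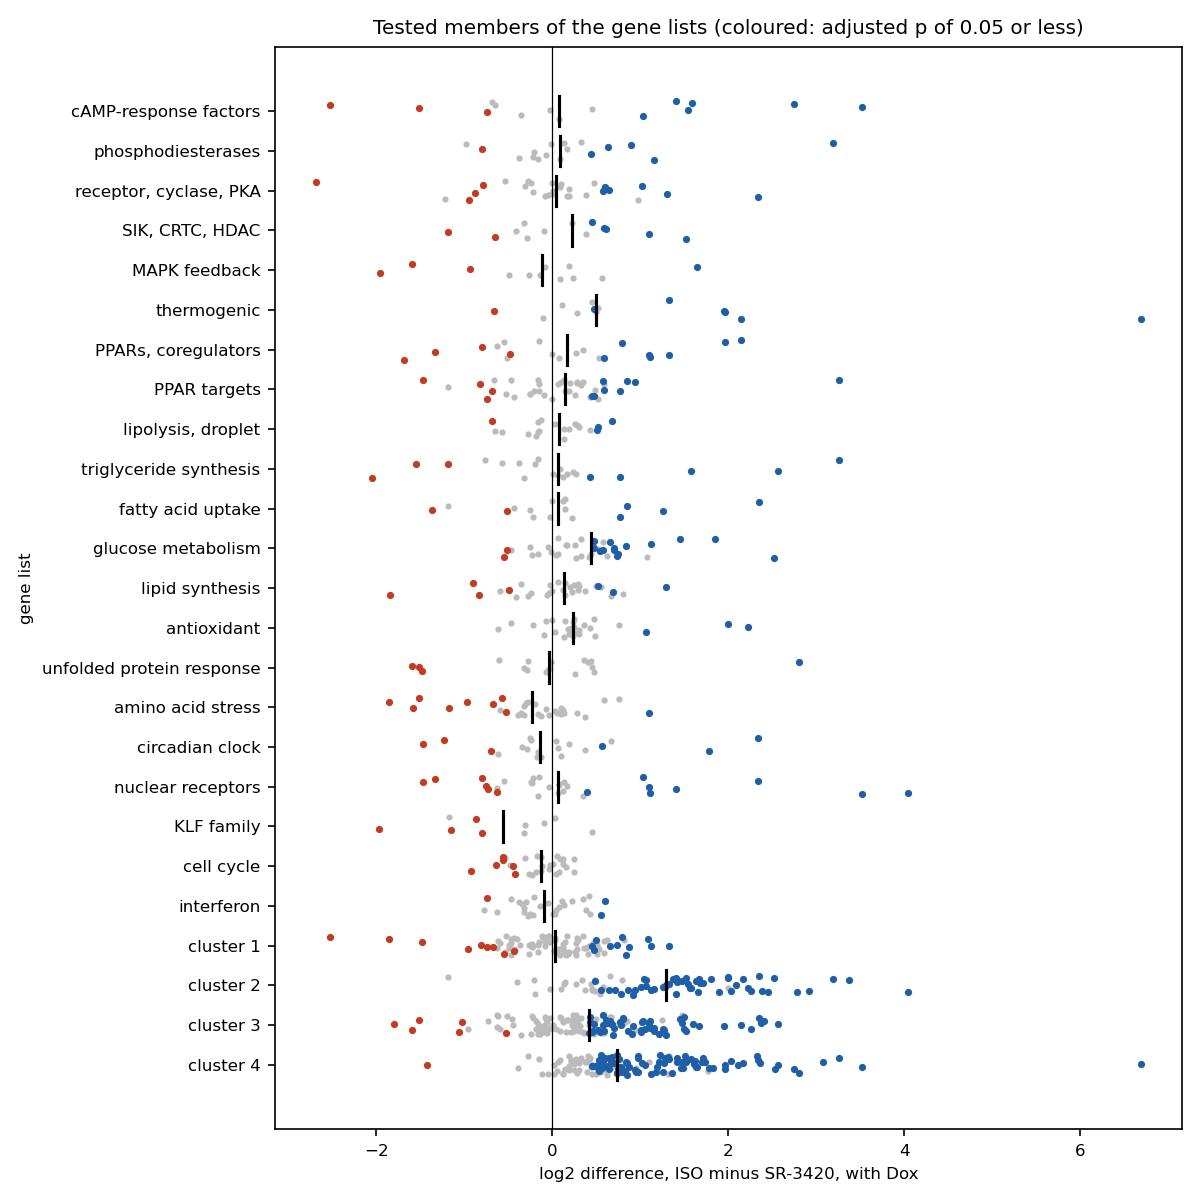
Log2 difference, ISO minus SR-3420 with Dox (horizontal axis), of every tested member of 25 gene lists (rows), where blue and red points passed at an edgeR adjusted p of 0.05 and grey points did not, and the black bar is the list median. Cluster 2 lies furthest to the right with a median of 1.29, and lipase and droplet genes lie around 0 with a median of 0.08.

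The study sorted genes that ISO induced in another experiment, with lipase inhibitors, into 4 clusters. Since SR-3420 was part of that sorting, the side on which a cluster falls here is not independent of the choice, but the libraries are different. That experiment also used a higher dose of ISO than here, and brown adipocytes without the Abhd5 knockdown. Cluster 1, induced through lipolysis and as much by SR-3420, had 87 tested genes, of which 3 were called higher with ISO and 3 lower, with a median log2 difference of 0.03 (1 and 3, with a median of 0.16, without SR-3420 replicate 1). Cluster 2, induced by ISO, more so with lipolysis blocked, had 72 tested genes, of which 43 were called higher and none lower, with a median of 1.29. Cluster 3, partly dependent on lipolysis, had 28 of 140 called higher and 5 lower and a median of 0.41. Cluster 4, induced with or without lipolysis, had 47 of 143 called higher and 1 lower and a median of 0.74. Tmem140, a membrane protein of cluster 1, was at 284, 208 and 234 CPM with ISO, 497, 458 and 454 CPM with SR-3420 and 71.3, 73.9 and 101 CPM with vehicle, 1.94-fold lower with ISO (edgeR adjusted p = 7.68e-06). Apmap, an adipocyte plasma membrane protein of cluster 2, was at 565, 409 and 493 CPM, 167, 161 and 136 CPM and 56.3, 61.4 and 60.7 CPM in that order, 3.16-fold higher with ISO (edgeR adjusted p = 5.75e-10). Its SR-3420 values all lay above those of vehicle. Dysf, dysferlin, of cluster 3 was 2.82-fold higher (edgeR adjusted p = 7.97e-09).

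The same contrast in knockdown cells shares no library with the one above. Without Dox, 504 genes (4.95%) were called higher with ISO and 575 (5.65%) lower, 1079 (10.6%) in all, or 394 higher and 785 lower with scaling on library totals alone. Of the genes called higher, 249 were called in both states, which is 70.1% of the 355 with Dox and 49.4% of the 504 without. Of those called lower, 177 were shared, 51.8% of the 342 and 30.8% of the 575, and no gene was called in opposite directions. Vdr differed by 4.04 on the log2 scale without Dox and 4.04 with it, and Ucp1 by 5.92 and 6.69. PPAR targets had a median log2 difference of -0.26 without Dox and 0.14 with it.

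**Figure D4:**
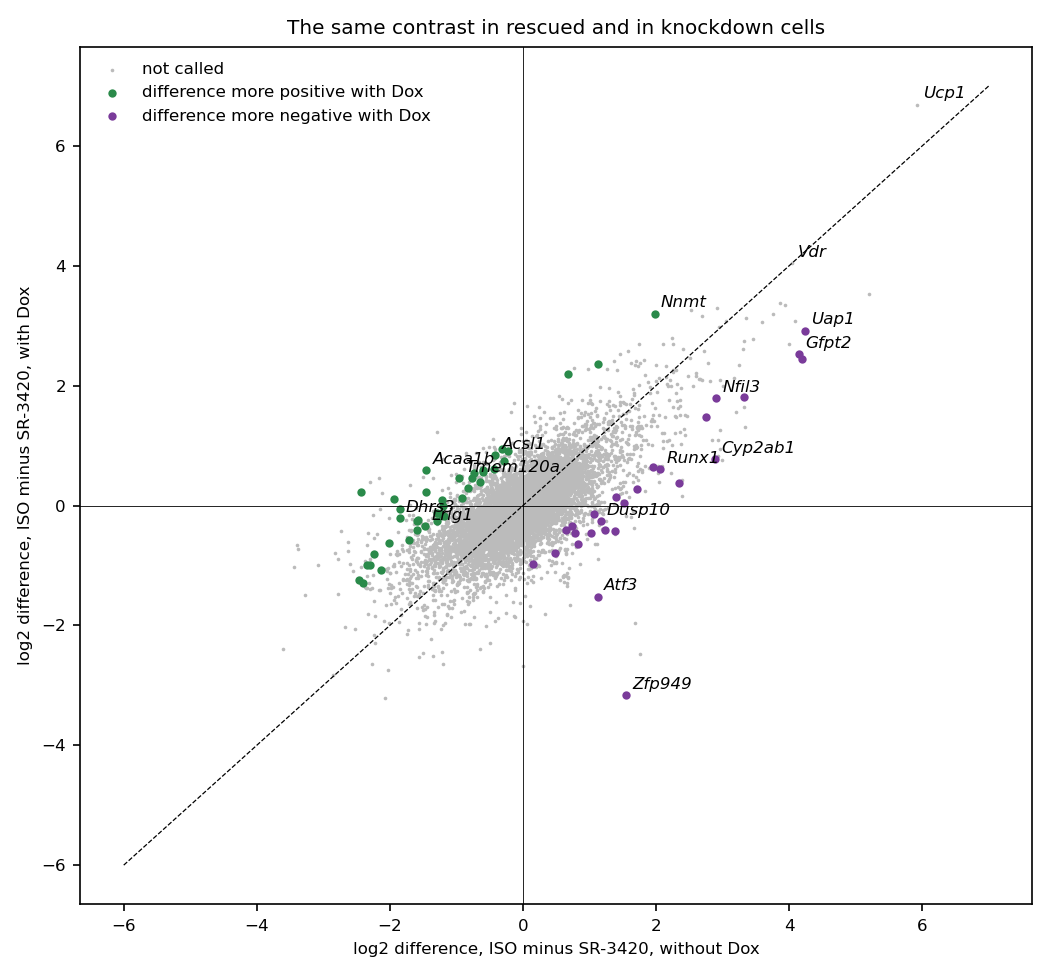
Log2 difference, ISO minus SR-3420, with Dox (vertical axis) against the same without Dox (horizontal axis) for all genes tested, with the dashed line marking equal differences. The 40 genes whose difference was more positive with Dox (green) lie above the line, with Acaa1b at -1.45 without Dox and 0.59 with it, and the 26 more negative (purple) below it, with Cyp2ab1 at 2.89 and 0.78.

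Tested directly, the difference between the agents was more positive with Dox for 40 genes (0.393%) and more negative for 26 (0.255%), together 66 (0.648%). At the adjusted p alone 89 genes (0.874%) passed, and 1082 genes had an unadjusted p under 0.05 in this interaction. These counts were not stable and moved in both directions. Leaving out single libraries gave 17 to 53 more positive and 8 to 36 more negative, with 17 and 8 without ISO without Dox replicate 1 and 35 and 14 without SR-3420 with Dox replicate 1. They were 68 and 8 with scaling on library totals alone and 76 and 71 with no filter on low counts. With replicate number added to the fit they were 68 and 74. Dhrs3, a retinal reductase, was at 32.4, 25.8 and 27.8 CPM with ISO and 102, 114 and 92.6 CPM with SR-3420 in knockdown cells, and at 139, 133 and 139.6 CPM and 158, 173 and 146 CPM in rescued cells. The agents were thus far apart without Dox and close with it, and the interaction was 1.64 ± 0.21 on the log2 scale (edgeR adjusted p = 0.00012). Tmem120a, a membrane protein of adipocyte differentiation, was at 121, 118 and 137 CPM and 239, 258 and 236 CPM without Dox and 548, 558 and 522 CPM and 392, 417 and 378 CPM with it, so that the order of the agents turned (interaction 1.41 ± 0.19, edgeR adjusted p = 0.00012). Acaa1b, a peroxisomal thiolase, was at 376, 317 and 294 CPM and 1105, 773 and 816 CPM without Dox and 2629, 1888 and 1743 CPM and 1613, 1524 and 1019 CPM with it (interaction 2.04 ± 0.31, edgeR adjusted p = 0.000917). Its own difference with Dox had an edgeR adjusted p of 0.0517, and of 0.0426 without ISO replicate 2, 0.038 without ISO replicate 3 and 0.0335 without SR-3420 replicate 1. Acsl1 was at 362, 399.5 and 314 CPM and 477, 537 and 417 CPM without Dox, both far below its levels with Dox given above, and its interaction was 1.26 ± 0.23 (edgeR adjusted p = 0.00424).

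Cyp2ab1, Runx1, Uap1 and Gfpt2 had a narrower gap between the agents with Dox. Cyp2ab1, a cytochrome P450 gene, was at 869.9, 783 and 653 CPM with ISO and 95.2, 135 and 77.7 CPM with SR-3420 without Dox, against 158, 227 and 139.6 CPM and 79.1, 158 and 70.9 CPM with Dox (interaction -2.11 ± 0.34, edgeR adjusted p = 0.00123). Its difference with Dox had an edgeR adjusted p of 0.024, and of 0.129 without ISO replicate 2, 0.11 without SR-3420 replicate 1 and 0.151 without SR-3420 replicate 3. Runx1, a transcription factor, was at 178, 141 and 144 CPM and 34.8, 37.2 and 38.4 CPM without Dox and 59.2, 44.1 and 55.8 CPM and 40.4, 33.8 and 28.96 CPM with it (interaction -1.45 ± 0.26, edgeR adjusted p = 0.00424). Its difference with Dox passed at 0.0266, but not at 0.113 without ISO replicate 1, 0.0695 without ISO replicate 3, 0.0643 without SR-3420 replicate 2 and 0.124 without SR-3420 replicate 3. Uap1 was at 2607, 2365 and 2181 CPM with ISO and 143, 118 and 117 CPM with SR-3420 without Dox, and at 859, 1293 and 877 CPM and 164, 138 and 96.9 CPM with it, and Gfpt2, the other hexosamine enzyme, at 267, 189 and 184 CPM and 11.6, 12.2 and 11.8 CPM without Dox. The SR-3420 levels of both lay close in the 2 states and the ISO levels were higher without Dox (interaction -1.32 ± 0.26 and -1.63 ± 0.33, edgeR adjusted p = 0.0132 and 0.0146, the latter 0.0952 without SR-3420 with Dox replicate 1).

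**Figure D5:**
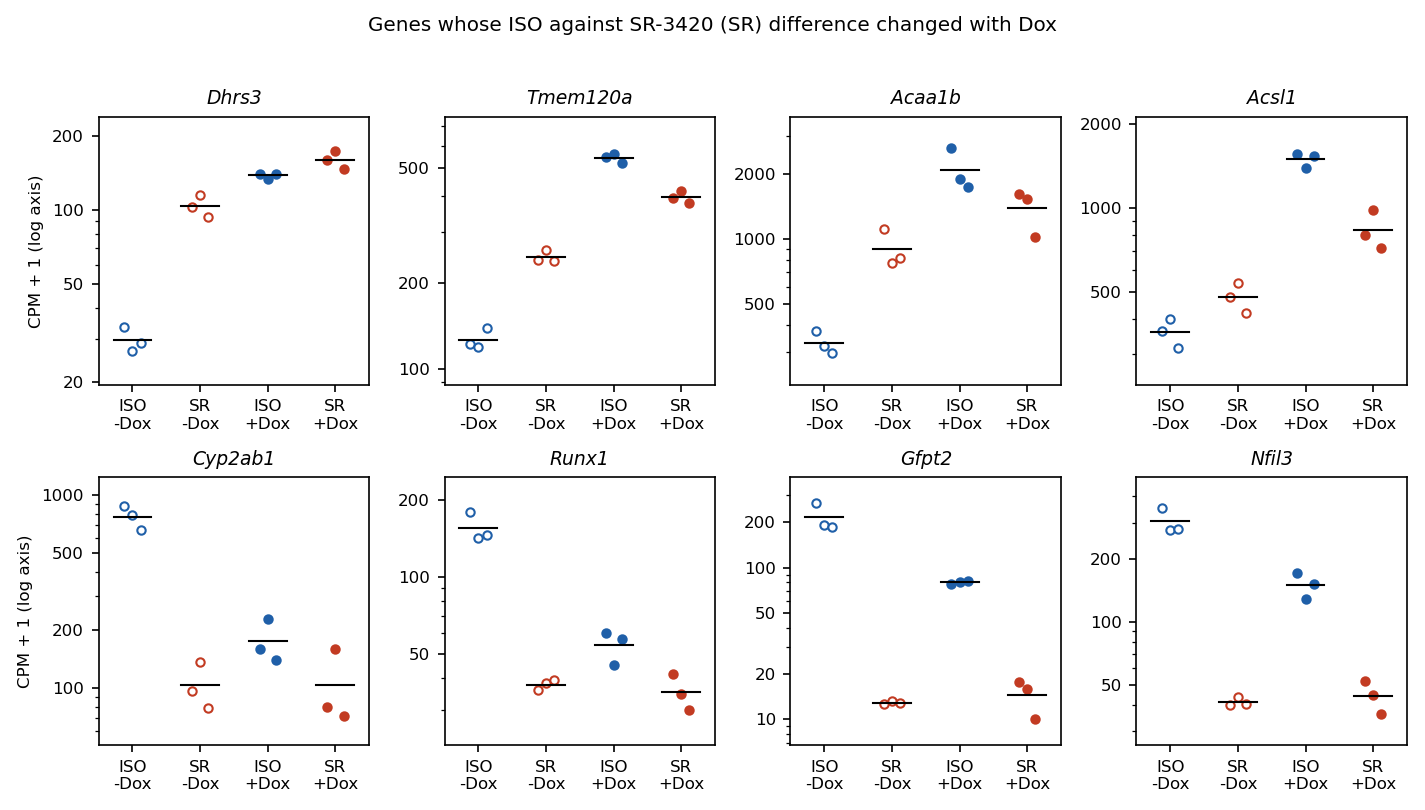
CPM with 1 added (log axis) of 8 genes in the 3 libraries each of ISO and SR-3420 without Dox (open points) and with Dox (filled points), with bars at group means. In the top row ISO lies below SR-3420 without Dox and near or above it with Dox, and in the bottom row ISO lies far above SR-3420 without Dox and less far above it with Dox.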

How the data were processed

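RNA was measured by sequencing (TruSeq2 libraries from 500 ng of total RNA). The authors aligned reads to mm9 with STAR 2.4.2a, collapsed reads to 1 per position and length with HOMER, and deposited raw read counts per gene made with iRNA-seq at its gene setting, with no pooling of replicates. Collapsing can lower the counts of strongly expressed genes. Totals of the 6 libraries compared were 1014430 to 1491360 counts, and the 95% interval of a log2 difference reached a median of 0.81 to either side for genes under 20 CPM and 0.40 above.

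Genes were filtered with filterByExpr and tested with edgeR 4.0.16 (quasi-likelihood, TMM, limma 3.58.1, R 4.3.3), fitting all 6 groups of 3, with Benjamini-Hochberg adjustment over 10178 genes. The difference between the states with and without Dox was tested as an interaction. The scripts were checked on simulated counts. Alternatives were other scalings and filters, DESeq2 1.42.0, limma-voom, a replicate block, fits of the compared groups alone and omission of each library.

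The members and gene lists were chosen with earlier results of these data known. Named genes are a stated set, the first 10 by p in each direction with groups that do not overlap, up to 4 passing and 2 abundant other members per list, and the first 5 by p in each direction of the interaction. Not all are described, and Egr1 and Rapgef3 were added after their values were seen. Of 198 named genes, 62 overlap another annotated gene, and as the methods do not give strand-specific counting their values, and those of Egr1 and Rapgef3, are uncertain. Those in the text are Fosl1, Adcy3, Grk5, Pde10a, Pde4d, Pde7a, Pde8a, Crtc2, Ppargc1b, Klf9, Hdac4, Zfp516, Prdm16, Cpne8, Gpd1, Gyk, Hilpda, Ehhadh, Tpi1, Acaca, Poln, Lzts2, Irs1, Dnaja4, Lamb1, Adamts9, Tmem140, Apmap, Dysf, Acaa1b, Runx1, Arhgef10, Pitpnm2, Pcx, Gpi1, Agpat3, Des, Ctcfl, Lrig1, Zfp949 and Spata5. RefSeq promoters on GRCm38.p6 were matched by symbol for 7808 of 10178 genes. Sequences are of that build, and gene coordinates of mm9.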

Additional observations from a re-analysis of the deposited data

Results flagged for a closer look

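For 18 of the named genes the difference between ISO and SR-3420 itself differed between cells with and without Dox, by the edgeR interaction test with adjustment over all genes. Of these, 10 were named for their rank by p in this same test, so the count is no measure of how common such differences are. Over all 10178 genes tested 66 (0.648%) were called. Each value is the log2 difference with Dox minus the log2 difference without Dox, from 3 libraries in each of 4 groups. The call was kept without any single library for 10 of the 18 and lost without at least 1 for 8.

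The difference was more positive with Dox for Acaa1b (2.04), Dhrs3 (1.64), Tmem120a (1.41), Ctcfl (1.29), Acsl1 (1.26), Nnmt (1.22) and Lrig1 (1.13). Ctcfl, a germline relative of the insulator protein CTCF, was at 82.1, 85.3 and 83.3 CPM with ISO and 136, 148 and 134 CPM with SR-3420 without Dox, and at 298, 221 and 234 CPM and 157, 178 and 179.8 CPM with it. Lrig1, an inhibitor of growth factor receptors, was at 143, 139 and 132 CPM and 388, 412 and 344 CPM without Dox and 334, 301 and 300.3 CPM and 366, 448 and 371 CPM with it. Nnmt lost its call in 9 of the 12 single-library omissions, at an adjusted p of up to 0.14.

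It was more negative with Dox for Zfp949 (-4.71), Atf3 (-2.64), Cyp2ab1 (-2.11), Gfpt2 (-1.63), Spata5 (-1.49), Runx1 (-1.45), Dusp10 (-1.43), Uap1 (-1.32), Klf10 (-1.28), Nupr1 (-1.12) and Nfil3 (-1.12). Zfp949 was at 1606, 96.4 and 484 CPM with SR-3420 and Dox, highest in replicate 1, the library that stands apart, and at 40.02, 96.1 and 109.7 CPM with ISO and Dox. Without that replicate its value was -3.38 (adjusted p = 0.0425), without ISO without Dox replicate 2 it was -3.49 (0.0399), and with limma-voom the call was lost (0.0727). The difference with Dox itself was -3.16, and -1.82 without SR-3420 replicate 1. Without that replicate the calls of Gfpt2 (adjusted p = 0.0952), Spata5 (0.0619), Nfil3 (0.0951), Nupr1 (0.0688), Atf3 (0.0958) and Klf10 (0.096) were lost. Nfil3 also lost its call without replicate 1 of either agent without Dox (0.0624 for ISO, 0.056 for SR-3420). Dusp10 lost it without ISO replicate 1 (0.0712) or SR-3420 replicates 1 (0.0575) or 2 (0.0628), all without Dox. Atf3 and Klf10 lost it in 10 of 12 omissions each and Nupr1 in 5, at an adjusted p of up to 0.213, 0.137 and 0.0834.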

How the results depend on the processing

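Each gene was tested with edgeR and each count below uses the same call rule. Across other scalings, filters, tools, fits of the compared groups alone and the replicate block, 311 to 408 genes were called higher and 283 to 391 lower with ISO in cells with Dox, against 355 and 342. Leaving out single libraries gave 314 to 409 and 297 to 346. Without Dox the corresponding settings gave 394 to 566 higher and 503 to 785 lower, and the single-library ranges were 443 to 571 higher and 454 to 609 lower. With no fold limit the counts were 1056 and 960 with Dox and 1436 and 1440 without it. The interaction counts were the most sensitive: against 40 more positive and 26 more negative with Dox, they were 68 and 8 on library totals alone, 76 and 71 with no filter on low counts, and 68 and 74 with the replicate block. Scaling on library totals alone also moved the median over all genes to -0.12 without Dox and to 0.17 for the interaction. Leaving out single libraries gave 17 to 53 and 8 to 36. The positive count was 17 without ISO without Dox replicate 1 and 24 without SR-3420 without Dox replicate 1. The negative count was 8 without that ISO library, 14 without SR-3420 with Dox replicate 1, and 13, 16 and 17 without SR-3420 without Dox replicates 1, 2 and 3. The cause was not tested.

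Replicate numbers gave correlations of same-numbered ISO and SR-3420 deviations of 0.15, 0.28 and 0.085 with Dox, the last under the 0.1 set for pairing, and of 0.11, 0.22 and 0.15 without Dox. Over all groups the 45 same-numbered pairs of libraries had correlations of 0.039 to 0.277. The labels give no basis for pairs, so the numbers were not used in the main tests. Each ISO library nevertheless correlated best with the SR-3420 library of its own number in both states. With the replicate block 378 genes were called higher and 389 lower with Dox, 530 and 628 without it, and Ppara (adjusted p = 0.011), Adrb3 (0.000782), Ppargc1b (0.000545), Pdk4 (0.00256), Acaa1b (0.00201), Pde8a (0.0167) and Crtc2 (0.0198) passed. Of the values of named genes under alternatives, 2837 kept their side of the threshold, 74 lost it and 67 gained it. Of their interaction values 404 kept it and 99 lost it, and no called value changed sign. With DESeq2, Angptl4 (adjusted p = 0.117), Nr4a2 (0.0928), Cyp2ab1 (0.0962) and Runx1 (0.0556) did not pass. With no filter, Pdk4 (0.0229), Ppara (0.0167), Ppargc1b (0.00204) and Adrb3 (4.44e-05) did. Depth limits the low genes most, where the 95% interval of a difference reached a median of 0.81 to either side below 20 CPM.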
